A study of Mus musculus with 2 samples.

Results

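The genes described are 34 immediate early and dissociation genes, chosen by gene symbol and all found among the 32285 genes of the count matrices. The choice used symbols and not measured values, although the set was proposed with results of these data known. They were measured in hippocampi of 4-week-old untreated mice, in 1 library of Crlf3-mutant mice and 1 library of wild-type mice. Crlf3 encodes cytokine receptor-like factor 3, and the title of the series concerns a single nucleotide variant of this gene in human and mouse cells. For each genotype 4 hippocampi were pooled, dissociated with enzymes, cleared of debris and myelin and sorted for live cells, and RNA was then read from the 5′ end of transcripts in droplets. The protocol names 4 mice without dividing them between the genotypes. Some cells of either pool carried Xist without Y-linked RNA and some the reverse, called Xist cells and Y cells here, so each pool mixed at least 1 animal of either kind, although the labels give no sexes. With 1 library per genotype no difference was tested, and every interval below covers counting error only.

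Immediate early genes are transcribed within minutes of a stimulus without the need for new protein. Factors already present in the cell switch them on, among them CREB at the cyclic AMP response element (CRE) and the serum response factor at the CArG box. Many of the products are transcription factors, while others, such as the DUSP phosphatases and the ZFP36 proteins, shut the same signals and transcripts down again. In hippocampal neurons Fos and Egr1 are classic marks of recent activity, and in microglia and vascular cells the set is well known to be induced when tissue is dissociated at warm temperature. No library here was made without dissociation, so levels before and after it cannot be told apart.

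RefSeq promoter windows of GRCm38.p6, running from 250 bases before to 50 bases after a gene's start, were available for 27 of the 34 members. The 200 bases before the start are shown for Fos, Jun, Junb, Zfp36, Dusp1 and Btg2. Together with Egr1, which had no window, these genes form the most closely linked pairs across microglia described further on. Capitals mark the short CRE motif TGACG on either strand and the CArG box.
Fos, chr12:85473690-85473889, plus strand: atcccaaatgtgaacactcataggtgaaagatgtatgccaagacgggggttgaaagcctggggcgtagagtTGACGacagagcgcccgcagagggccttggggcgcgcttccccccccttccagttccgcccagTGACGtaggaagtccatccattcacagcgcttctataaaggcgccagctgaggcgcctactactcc
Jun, chr4:95052223-95052422, minus strand: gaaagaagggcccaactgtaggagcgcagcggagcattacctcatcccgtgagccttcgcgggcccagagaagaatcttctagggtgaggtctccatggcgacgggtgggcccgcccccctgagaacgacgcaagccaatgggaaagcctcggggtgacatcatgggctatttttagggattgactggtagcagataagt
Junb, chr8:84978749-84978948, minus strand: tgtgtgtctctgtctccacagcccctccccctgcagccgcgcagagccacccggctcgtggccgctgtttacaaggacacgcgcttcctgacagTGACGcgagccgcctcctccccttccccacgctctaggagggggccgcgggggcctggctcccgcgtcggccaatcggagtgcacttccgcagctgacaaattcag
Zfp36, chr7:28379229-28379428, minus strand: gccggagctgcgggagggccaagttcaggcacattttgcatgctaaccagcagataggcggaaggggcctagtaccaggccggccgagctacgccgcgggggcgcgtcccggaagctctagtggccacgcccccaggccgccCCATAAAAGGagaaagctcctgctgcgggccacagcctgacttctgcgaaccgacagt
Dusp1, chr17:26508473-26508672, minus strand: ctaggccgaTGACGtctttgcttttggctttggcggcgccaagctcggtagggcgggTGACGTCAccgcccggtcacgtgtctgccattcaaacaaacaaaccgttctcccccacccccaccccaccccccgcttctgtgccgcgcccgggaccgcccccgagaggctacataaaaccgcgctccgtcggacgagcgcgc
Btg2, chr1:134079156-134079355, minus strand: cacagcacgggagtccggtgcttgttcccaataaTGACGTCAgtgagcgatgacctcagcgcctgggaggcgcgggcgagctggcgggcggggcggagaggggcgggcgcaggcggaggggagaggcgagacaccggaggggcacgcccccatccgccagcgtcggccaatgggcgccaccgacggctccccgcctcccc
The short motif lies 129 and 66 bases before the start of Fos and 106 bases before that of Junb, and Fos also has a TATAAA box 33 bases before its start. In Dusp1 and Btg2 the motif is extended to the full palindrome TGACGTCA, at 143 and 166 bases before the start, and Dusp1 carries a further short motif at 191 bases. Zfp36 has a CArG box at 58 bases, and the printed stretch of Jun holds neither pattern. Over the whole 300-base windows and both strands, TGACG was found in 18 of the 27 members, against 23.0% of 27025 genes with a window and 38.7% of 2606 such genes measured in microglia. TGACGTCA, which contains TGACG, was found in 3 members (Btg2, Dusp1 and Maff), against 2.03% of all genes with a window. The CArG box was found in 3 members (Egr2, Dusp5 and Zfp36), against 1.81%. The AP-1 site TGANTCA was found in 2 members (Zfp36l1 and Csrnp1), against 8.97%. TATAAA was found in 7 members, against 15.7%. The member windows hold a median of 25 CG pairs, against 8 over all genes and 24 over the genes measured in microglia. A match describes the letters of a window and shows no binding.

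The mutant library held 5720 cell barcodes with 43103469 UMIs and the wild-type library 7713 barcodes with 51328178 UMIs, and 64 barcodes occurred in both. After filters and removal of doublets 5276 mutant and 7098 wild-type cells remained, with medians of 7385 and 6193 UMIs. Cells were sorted into classes by markers that include no member, and the markers of each class led its genes in both libraries. Microglia were most numerous, with 3303 mutant and 4523 wild-type cells, followed by 815 and 833 endothelial cells, 500 and 786 astrocytes, 152 and 430 choroid plexus cells, 198 and 157 cells of the neuron lineage (neuroblasts and progenitors), and 162 and 122 mural cells. Ependymal cells (20 and 53) and border macrophages (19 and 51) were too few for a comparison of the genotypes and are given by level only. Levels are given as CPM, a count scaled to 1000000 UMIs over all cells of a class, and since a transcript is counted once at its 5′ end they need no length correction. The summed level of 13 microglial markers in the non-immune classes was between 0.185% and 0.528% of that in microglia. In border macrophages, which were not filtered on these markers, it was 22.9% in mutant and 25.6% in wild-type cells. How much of their member levels came from microglial RNA was not tested.

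The members took 4.93% of all UMIs in mutant microglia and 5.01% in wild-type microglia. In border macrophages the share was 5.26% in mutant and 5.14% in wild-type cells, in endothelial cells 3.60% and 3.56%, and in mural cells 2.86% and 2.64%. The neural classes were far lower: astrocytes spent 0.827% of their UMIs on the members in the mutant and 0.823% in the wild type, and the neuron lineage 0.586% and 0.627%. Choroid plexus cells came last with 0.0645% in mutant and 0.0763% in wild-type cells, although their cells were among the deepest, with medians of 11638.5 and 10134.5 UMIs. The order of the 6 larger classes was the same in both libraries, from microglia through endothelial cells, mural cells, astrocytes and the neuron lineage to the choroid plexus. Ependymal cells differed between the libraries, at 2.45% in 20 mutant cells and 1.44% in 53 wild-type cells.

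**Figure D1:**
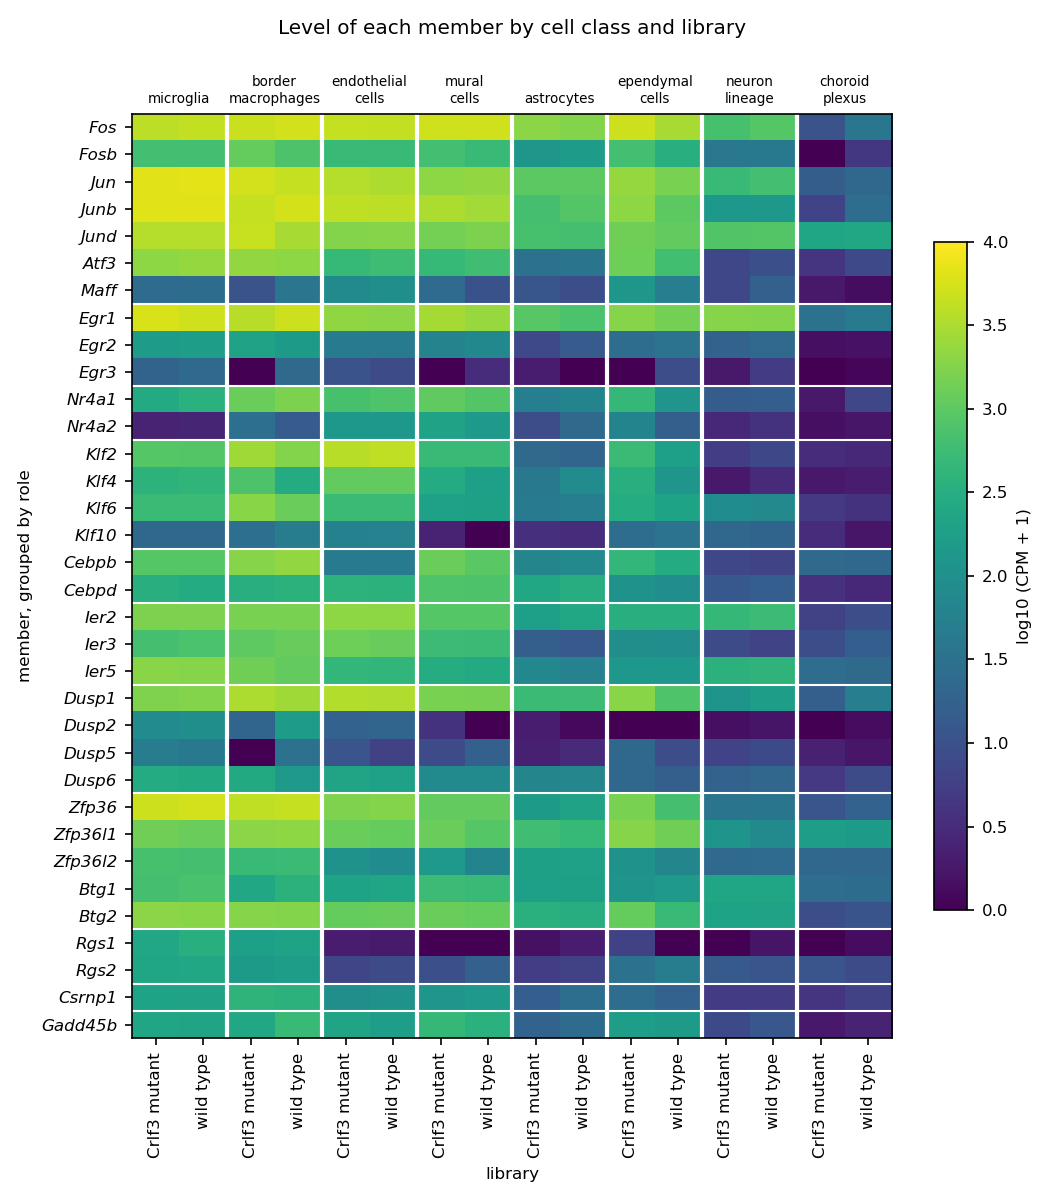
Level of the 34 members (rows, grouped by role) in 8 cell classes, with the Crlf3-mutant library left of the wild-type library in each class, as log10 of CPM + 1 on a colour scale. Microglia, border macrophages, endothelial and mural cells are bright over most rows, the choroid plexus is dark, and the Rgs1 and Rgs2 rows are brightest in microglia and border macrophages.

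Of the 34 members, 25 had their highest level in the same class in both libraries, against 85.3% of 8275 genes measured in at least 1 of the 8 classes. Only 32 of the members were measured in this sense. Egr3 and Dusp5 were not but are counted here, so the sets of members and of background genes are not quite alike. That class was microglia for 12 members, a class in which 8.1% of all measured genes peaked. It was border macrophages for 6 members (background 5.62%), endothelial cells for 5 (9.45%) and mural cells for 2 (8.83%). No member peaked in both libraries in astrocytes, the neuron lineage, ependymal cells or the choroid plexus, where 9.78%, 24.8%, 10.6% and 8.08% of genes did. Fos, Jund, Egr2, Egr3, Ier3, Atf3, Dusp2, Maff and Gadd45b had different leading classes in the libraries. The 95% counting interval of the leading class lay apart from the next class in both libraries for 7 of the 12 microglial members, 4 of the 6 of border macrophages, 3 of the 5 endothelial members and 1 of the 2 mural members.

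Members of the AP-1 group encode leucine-zipper factors that bind DNA in pairs. Jun was the most abundant member in microglia, with 6652 CPM in mutant and 6823 CPM in wild-type cells, followed by Junb with 6311 and 6518 CPM. Fos, the usual partner of Jun, was spread more evenly, with 3972 CPM in mutant and 4221 CPM in wild-type microglia, 4372 and 4229 CPM in endothelial cells, and 5161 and 5105 CPM in mural cells. It was lower in astrocytes, at 2028 CPM in mutant and 1806 CPM in wild-type cells, and in the neuron lineage, at 683 and 875 CPM. Jund, which is present in resting cells as well, was the AP-1 gene with the smallest span among classes. It reached 3588 CPM in mutant and 3624 CPM in wild-type microglia and still stood at 232 and 248 CPM in the choroid plexus, where it was the most abundant member. Atf3, a stress-induced repressor, was mainly a gene of microglia (2076 CPM in mutant and 2302 CPM in wild-type cells) and border macrophages (2258 and 2063 CPM). Fosb had 648 and 647 CPM in mutant and wild-type microglia, and was led by border macrophages with 1120 and 765 CPM. Maff, a small MAF factor without an activation domain, had only 24.4 and 24.7 CPM there, and it was higher in endothelial cells, at 81.0 CPM in mutant and 97.3 CPM in wild-type cells, and in ependymal cells, at 129 and 50.01 CPM.

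The EGR group of zinc-finger factors was carried by Egr1. Egr1 had 5677 CPM in mutant and 5193 CPM in wild-type microglia, and it was the most abundant member of the neuron lineage, with 1865 CPM in mutant and 1809 CPM in wild-type cells. Egr2, a regulator of myelination in Schwann cells, was a small part of the group, with 159 CPM in mutant and 166 CPM in wild-type microglia. Egr3 did not reach the 50 CPM and 30 UMIs that were set for a member to count as measured, in any class, and stood at 18.0 CPM in mutant and 22.4 CPM in wild-type microglia. The orphan nuclear receptors of the NR4A group differed from the EGR genes in where they were seen. Nr4a1 was led by border macrophages, with 1280 CPM in mutant and 1636 CPM in wild-type cells. It was also higher in mural cells, at 1053 CPM in mutant and 839 CPM in wild-type cells, than in microglia, at 275 and 354 CPM. Nr4a2 was nearly absent from microglia, at 1.42 CPM in mutant and 1.56 CPM in wild-type cells, and was led by mural cells with 199 and 140 CPM.

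Of the Krüppel-like factors, Klf2 and Klf4 are known as flow-responsive genes of the endothelium. Klf2 had 3670 CPM in mutant and 4090 CPM in wild-type endothelial cells, against 887 and 835 CPM in microglia. In cells thinned to 2000 UMIs, 96.6% of mutant and 96.3% of wild-type endothelial cells had a Klf2 UMI (99.1% and 99.3% without thinning). In astrocytes 1.45% of mutant and 1.46% of wild-type cells did. Klf4 had 1085 CPM in both endothelial samples and less in every other class. Klf6 was led by border macrophages, at 1948 CPM in mutant and 1235 CPM in wild-type cells, and Klf10, a TGF-beta-responsive member, by endothelial cells at 57.0 and 58.6 CPM. The C/EBP pair divided between cell types. Cebpb, a factor of macrophage activation, had 881 CPM in mutant and 896 CPM in wild-type microglia but 42.4 and 41.5 CPM in endothelial cells, and was led by border macrophages with 1872 and 2267 CPM. Cebpd was led by mural cells with 778 CPM in mutant and 771 CPM in wild-type cells.

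The DUSP phosphatases inactivate MAP kinases and so close the pathway that induces the set. Dusp1, a nuclear phosphatase and the most abundant of the group, had 3473 CPM in mutant and 3330 CPM in wild-type endothelial cells and 1698 and 1808 CPM in microglia. Dusp6, which acts on ERK in the cytoplasm, had 285 CPM in mutant and 272 CPM in wild-type microglia. Dusp2 (84.1 and 95.6 CPM in mutant and wild-type microglia) and Dusp5 (46.1 and 41.1 CPM) were scarce, and Dusp5 was not measured in any class by the limits given above. The IER genes encode short regulators of transcription and survival. Ier2 and Ier3 were highest among the larger classes in endothelial cells, with 2070 CPM in mutant and 2078 CPM in wild-type cells for Ier2 and 1292 and 1181 CPM for Ier3. Ier5 was a microglial gene at 1963 CPM in mutant and 1892 CPM in wild-type cells.

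Among the genes of mRNA decay, Zfp36 encodes tristetraprolin, which binds AU-rich elements of cytokine transcripts. It had 4897 CPM in mutant and 5233 CPM in wild-type microglia, against 150 and 201 CPM in astrocytes. Its relative Zfp36l1 was more even, with 1337 CPM in mutant and 1220 CPM in wild-type microglia, 584 and 469 CPM in astrocytes and 173 and 150 CPM in the choroid plexus. Zfp36l1 was led by border macrophages, with 2042 CPM in mutant and 2060 CPM in wild-type cells, followed by ependymal cells with 1904 and 1371 CPM. Zfp36l2 had 688 CPM in mutant and 661 CPM in wild-type microglia. Btg1 and Btg2, antiproliferative adaptors of the deadenylase, were highest in microglia, Btg2 with 2004 CPM in mutant and 1919 CPM in wild-type cells and Btg1 with 664 and 712 CPM. The RGS genes, which shorten G protein signalling, were the most restricted members. Rgs1 had 252 CPM in mutant and 317 CPM in wild-type microglia and at most 1.07 and 1.03 CPM in the endothelial, mural, neural and choroid plexus classes. In thinned cells 28.6% of mutant and 30.7% of wild-type microglia had an Rgs1 UMI (54.0% and 52.8% without thinning), against 0.207% of mutant and 0.266% of wild-type astrocytes, whose median depth of 7689 and 6027.5 UMIs was close to that of microglia at 7782 and 6380 UMIs. Rgs2 had 228 and 243 CPM in mutant and wild-type microglia. Csrnp1, a cysteine- and serine-rich nuclear protein, was led by border macrophages (405 CPM in mutant and 367 CPM in wild-type cells). Gadd45b, a stress sensor upstream of p38, had 220 and 217 CPM in mutant and wild-type microglia and 454 and 360 CPM in mural cells.

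Per cell, the classes differed in how evenly the members were used. Out of 2000 UMIs, the median mutant microglial cell spent 97 on members and the median wild-type cell 100, with the middle 90% of cells between 42 and 171 in the mutant and between 22 and 174 in the wild type. The upper end of the microglial range was alike in the libraries, while the lower end reached further down in the wild type. This was mostly so in Xist cells, where the 5th percentile was 40 in the mutant and 15 in the wild type. In Y cells it was 51 in the mutant and 42.45 in the wild type. Endothelial cells had medians of 67.5 in the mutant and 69 in the wild type. Astrocytes were mostly low with a long tail, with medians of 5 in mutant and 4 in wild-type cells and 95th percentiles of 62.5 and 66.4. Mural cells were spread over the whole range, with a median of 28 in 142 mutant cells and 13 in 110 wild-type cells and upper quartiles of 82.8 and 80. In the choroid plexus the median cell of either library had 1 member UMI, and no cell had more than 5 in the mutant or 13 in the wild type. For Fos the 5% of cells with most UMIs held 15.4% of its UMIs in mutant and 16.1% in wild-type microglia, but 46.4% in mutant and 39.0% in wild-type astrocytes.

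**Figure D2:**
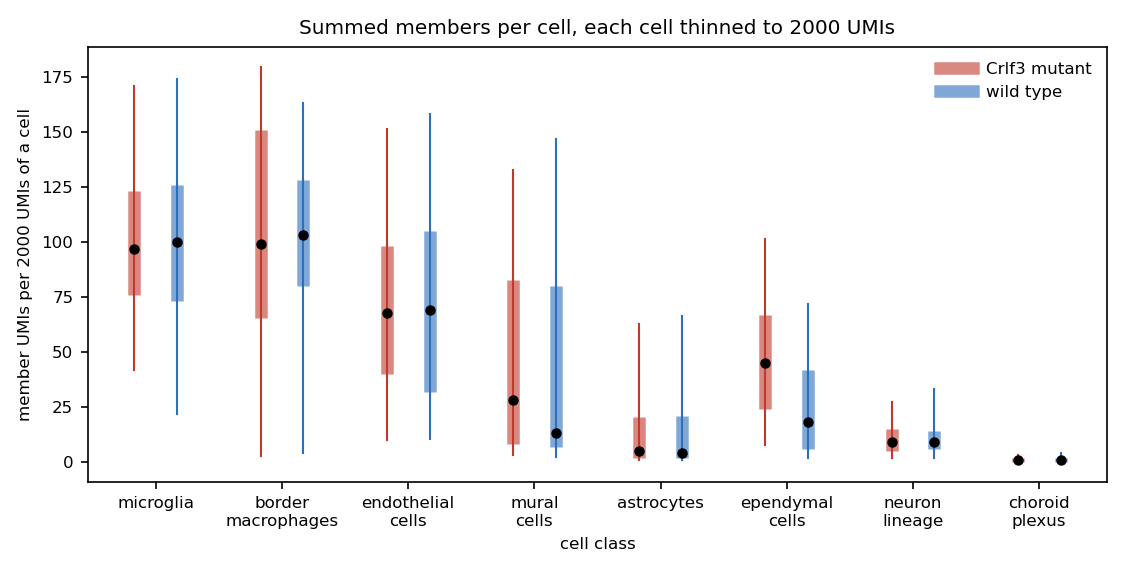
Summed member UMIs per cell (vertical axis, out of 2000 UMIs per cell) in 8 classes, with the Crlf3 mutant left of the wild type. Points are medians, thick bars the middle 50% of cells and thin lines the 5th to 95th percentiles. The microglial medians are 97 and 100, and astrocytes and mural cells have long upper tails.

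Clusters of microglia differed in the members. They were made without the members, and the differences between them are descriptions. Hspa1b, a heat shock gene, led a cluster of 537 mutant and 938 wild-type cells, with Ddit4, Selplg, Xist and Tmem119 also in front. There the members summed to 38334 CPM in the mutant and 33252 CPM in the wild type. In the largest cluster, led by Gadd45g and again Ddit4 (1023 and 1256 cells), they summed to 51853 and 54652 CPM in mutant and wild-type cells. Heat shock genes together were lower in the Hspa1b cluster, at 6644 CPM in mutant and 6500 CPM in wild-type cells. In the Gadd45g cluster they had 7936 and 7613 CPM. Lower sums of the members were seen in 2 small groups of microglia inside clusters named for other classes. These were 1 with astrocyte genes in front (10 and 16 cells, 25755 CPM in the mutant and 24187 CPM in the wild type) and 1 of cycling cells led by Mki67 (15 and 10 cells, 24784 and 28870 CPM). The first group lay in the main astrocyte cluster and held 159112 UMIs in the mutant and 181334 UMIs in the wild type. Whether its cells were doublets that had not been called was not tested. Egr1 was also lower in the Hspa1b cluster, with 3630 CPM in mutant and 2415 CPM in wild-type cells, against 6164 and 5905 CPM in the Gadd45g cluster. Rgs1 ran the other way, with 378 CPM in mutant and 639 CPM in wild-type cells of the Hspa1b cluster, against 261 and 287 CPM in the Gadd45g cluster. In a cluster led by Ccl4, Ccl3 and Il1b, genes of chemokines and a cytokine (364 and 510 cells), Gadd45b had 398 CPM in mutant and 433 CPM in wild-type cells, against 179 and 169 CPM in the Gadd45g cluster. Dusp2 was likewise higher there, at 139 CPM in mutant and 205 CPM in wild-type cells, against 73.9 and 71.2 CPM in the Gadd45g cluster. Another cluster with Ccl4 and Ccl3 in front, followed by histone genes (207 and 352 cells), did not share this, with Gadd45b at 103 CPM in mutant and 108 CPM in wild-type cells and Dusp2 at 53.6 and 64.4 CPM.

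Across thinned microglia, the most closely linked members were AP-1, EGR and feedback genes. Spearman's rho between Jun and Egr1 was 0.44 in 3266 mutant cells and 0.53 in 4454 wild-type cells. It was 0.42 and 0.49 between Fos and Zfp36, 0.42 and 0.49 between Fos and Jun, 0.40 and 0.45 between Junb and Zfp36, 0.39 and 0.50 between Fos and Dusp1, and 0.38 and 0.46 between Egr1 and Btg2. The cells of a library share its dissociation and sequencing run, so these values describe the libraries. Over the 378 pairs whose members were both often detected in both libraries, the median was 0.08 in mutant and 0.10 in wild-type microglia. Most of these pairs were thus only weakly linked. Rgs1 stood outside the linked block, at -0.04 with Egr1 in mutant and -0.12 in wild-type cells. Among genes that are no members, those whose counts followed the summed members included Ppp1r15a, a stress gene that restores translation, with rho of 0.34 in mutant and 0.40 in wild-type cells, and Rhob, a small GTPase that is itself an immediate early gene (0.38 and 0.33). The NF-kB inhibitor genes Nfkbia (0.29 and 0.44) and Nfkbiz (0.26 and 0.34) were also among the 10 that followed it most closely of 2870 ranked. The summed members followed the percentage of mitochondrial UMIs inversely, at -0.27 in mutant and -0.12 in wild-type microglia.

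**Figure D3:**
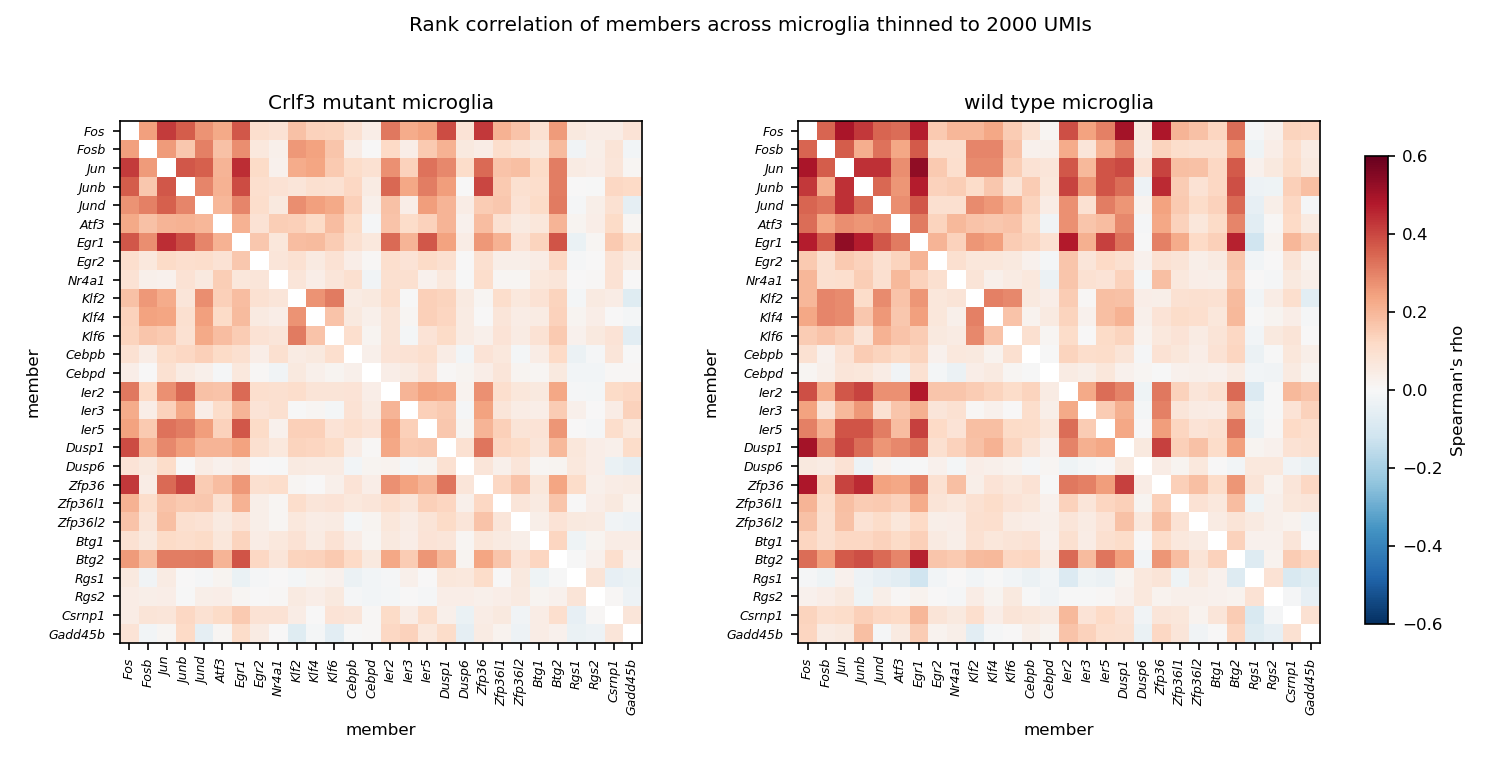
Spearman's rho between members (both axes, grouped by role) across microglia thinned to 2000 UMIs, Crlf3 mutant left and wild type right. Fos, Jun, Junb, Egr1, Ier2, Btg2, Dusp1 and Zfp36 form the warm block in both panels, with Jun and Egr1 at 0.44 in the mutant and 0.53 in the wild type, and Rgs1 is pale or blue against them.

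Pairs were kept only where both members were often detected in the class in both libraries, so each class has its own set of pairs. The median was 0.41 over 171 pairs in mural cells of the mutant and 0.46 in the wild type. It was 0.23 and 0.28 over 231 pairs in endothelial cells, and 0.34 and 0.35 over 55 pairs in astrocytes. The neuron lineage had 0.07 in the mutant and 0.14 in the wild type over 36 pairs. Because the pairs differ, these medians do not rank the classes. Fos and Egr1 had rho of 0.83 in mutant and 0.87 in wild-type mural cells, 0.72 and 0.76 in astrocytes, and 0.51 and 0.47 in the neuron lineage. In endothelial cells the leading pair was Junb and Egr1, at 0.65 in the mutant and 0.68 in the wild type. In mural cells the summed members also followed the depth of a cell before thinning, with rho of 0.33 in the mutant and 0.40 in the wild type, while in astrocytes that value was 0.05 and -0.01.

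Astrocytes contained a small group of cells with high members. In a cluster led by Ass1, Adamts1, Fabp7 and Gas1 (33 mutant and 39 wild-type cells of the class), the members summed to 37568 CPM in the mutant and 25418 CPM in the wild type. The main astrocyte cluster, led by F3, Gjb6 and Aqp4 (444 and 727 cells), had 5093 CPM in the mutant and 6311 CPM in the wild type. Fos reached 10555 CPM in mutant and 5910 CPM in wild-type cells of the small cluster, against 1090 and 1343 CPM in the main one. Cells of a further small cluster, led by Hmgn2 and Tmsb4x (20 and 14 cells), had 15109 CPM in the mutant and 19994 CPM in the wild type, so the order of the genotypes differed among the clusters.

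In the neuron lineage Egr1 led in cells of the cycling cluster marked by Top2a and Mki67, at 2707 CPM in 43 mutant and 2484 CPM in 31 wild-type cells. In the Neurod1 and Calb2 cluster of granule-lineage neuroblasts it had 1618 CPM in 130 mutant and 1678 CPM in 108 wild-type cells. Cells of a cluster led by Dlx6os1 and Gad2 had the least Egr1, 540 CPM in 25 mutant and 151 CPM in 18 wild-type cells. Btg1 was highest in the Dlx6os1 cluster, with 663 CPM in mutant and 878 CPM in wild-type cells. It had 186 CPM in mutant and 148 CPM in wild-type cells of the cycling cluster and 181 and 202 CPM in the Neurod1 cluster.

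Between the genotypes, microglial levels of the members were close. Of 29 measured members 11 were above and 18 below a log2 ratio of 0, mutant over wild type and computed on CPM + 10, and their median was -0.02, against 0.01 for 3249 measured genes. None was 1.5 times higher or 1.5 times lower, against 0.0616% of genes that were higher by that much and 0.0923% that were lower. The largest ratio was that of Nr4a1, with 275 CPM in mutant and 354 CPM in wild-type microglia, a log2 ratio of -0.35 (counting interval -0.39 to -0.31). Rgs1 followed at -0.32 (-0.37 to -0.28), then Dusp2 at -0.17 and Atf3 at -0.15. Cebpd, at 329 CPM in mutant and 289 CPM in wild-type cells, lay furthest in the other direction at 0.18 (0.14 to 0.22), and Egr1 and Zfp36l1 were both at 0.13. Counting error is small in this class, and the intervals do not hold the spread between animals.

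In endothelial cells 15 of 27 measured members were above and 12 below 0, with a median of 0.01, equal to that of 3583 genes to 2 decimals. None was past 1.5 times, against a background of 0.0% higher and 0.251% lower. Gadd45b, with 215 CPM in mutant and 176 CPM in wild-type cells, was highest at 0.28 (0.15 to 0.41), followed by Zfp36l2 at 0.26 (0.09 to 0.44). Atf3, with 472 CPM in mutant and 569 CPM in wild-type cells, was lowest at -0.26 (-0.35 to -0.18). Nr4a1 had 673 and 795 CPM in mutant and wild-type cells and a ratio of -0.24 (-0.31 to -0.17), and Klf2 a ratio of -0.16 (-0.19 to -0.13).

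Mural cells had 27 measured members with a median log2 ratio of 0.10, against 0.03 for 3588 genes. Here 2 members were 1.5 times higher, against 4.15% of genes, and none was 1.5 times lower, against 1.67%. Zfp36l2 had 140 CPM in mutant and 63.3 CPM in wild-type cells, from 98 and 28 UMIs, a log2 ratio of 1.03 (0.48 to 1.60), and reached the limit of 30 UMIs through the mutant alone. Klf4 had 285 CPM in mutant and 179 CPM in wild-type cells, a ratio of 0.64 (0.28 to 1.02), with 61.3% of its mutant and 49.4% of its wild-type UMIs in the 5% of cells with most. With each cell thinned to 2000 UMIs the Klf4 ratio was 0.27, and in Y cells alone it was 0.19, while that of Zfp36l2 was 0.46 in Y cells, so these values are no longer past 1.5 times there. Nr4a2 (0.48), Zfp36l1 (0.47) and Cebpb (0.44) came next, and Atf3 was lowest at -0.28 (-0.51 to -0.05).

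Astrocytes had 20 measured members with a median of -0.08, against 0.01 for 3709 genes, 6 above and 14 below 0. Only Klf4 was past 1.5 times in this class, with 41.0 CPM in mutant and 84.7 CPM in wild-type cells and a ratio of -0.89 (-1.11 to -0.67). Klf4 reached the limit of 50 CPM through the wild type alone, so that a lower value in the mutant was fixed by the limit. The background there is 0.162% lower and 0.485% higher. Ier2 had 179 CPM in mutant and 248 CPM in wild-type cells (-0.45), Zfp36 150 and 201 CPM (-0.40), Junb 651 and 855 CPM (-0.39) and Cebpd 244 and 308 CPM (-0.32). Zfp36l1 (0.31), Egr1 (0.30) and Fos (0.17) were higher in the mutant over the whole class. Fos and Junb, linked across astrocytes, thus stood on different sides of 0 there, but not within clusters. In the main astrocyte cluster both were lower in the mutant (Fos 1090 against 1343 CPM, Junb 475 against 717 CPM), as in the Hmgn2 cluster. In the small Ass1 cluster both were higher in the mutant (Fos 10555 against 5910 CPM, Junb 3082 against 2169 CPM). The class ratios mix these clusters.

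In the neuron lineage 12 members were measured, with a median of -0.03, against 0.00 for 4493 genes. None was past 1.5 times, against 0.49% higher and 0.178% lower. Dusp1 had 119 CPM in mutant and 171 CPM in wild-type cells (-0.49, interval -0.73 to -0.25), Fos 683 and 875 CPM (-0.35) and Jun 515 and 629 CPM (-0.28). Egr1, the most abundant member, had a ratio of 0.04 (-0.03 to 0.12), and Zfp36l1 was at 0.47 (0.18 to 0.76). In the choroid plexus only Jund (-0.09), Zfp36l1 (0.19) and Dusp1 were measured, Dusp1 through the wild type alone, so that its direction was set by the limit; the median over 2603 genes was 0.07. Dusp1 had 15.2 CPM in mutant and 50.4 CPM in wild-type cells, from 34 and 268 UMIs, and a ratio of -1.26 (-1.59 to -0.92), against 0.346% of genes lower by 1.5 times and 0.384% higher. Of these UMIs 79.4% in the mutant and 81.0% in the wild type came from the 5% of cells with most Dusp1, 8 and 22 cells, and 54 from a single wild-type cell. In thinned cells 2.01% of mutant choroid plexus cells (0.417 to 5.77) and 5.14% of wild-type cells (3.25 to 7.68) had a Dusp1 UMI, and the intervals overlap.

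**Figure D4:**
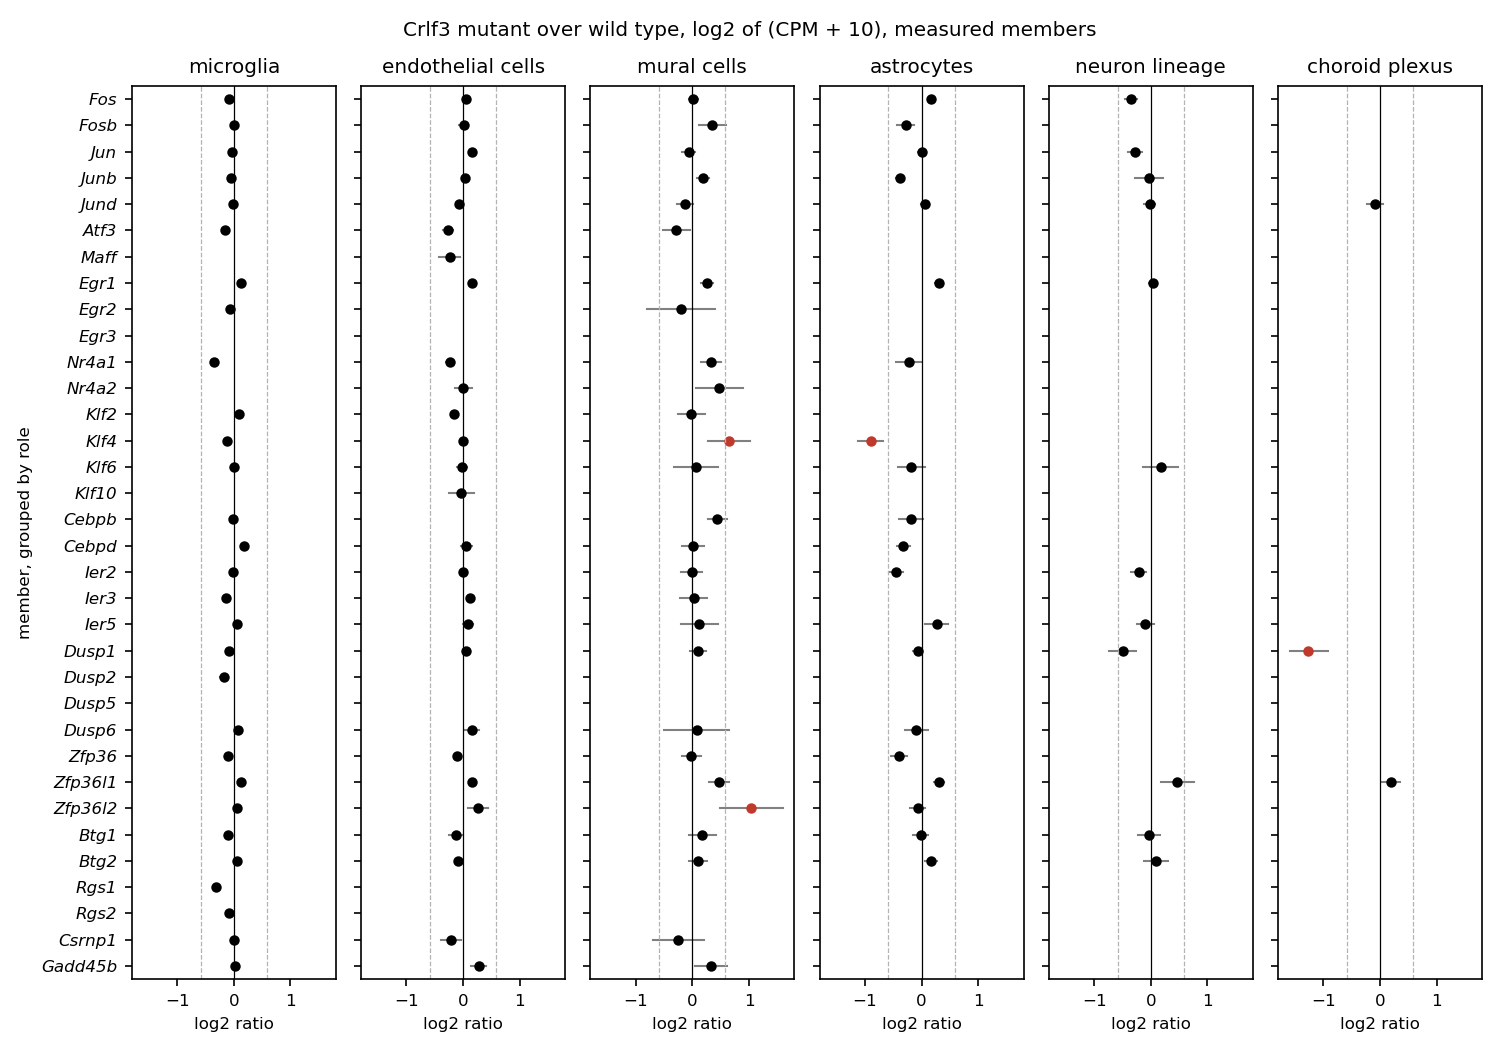
Log2 ratio of CPM + 10, Crlf3 mutant over wild type, for each measured member (rows, grouped by role) in 6 classes. Lines are 95% counting intervals, dashed lines 1.5 times in either direction, and red points lie beyond them: Klf4 in astrocytes, Dusp1 in the choroid plexus, and Klf4 and Zfp36l2 in mural cells.

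Only Zfp36l1, Jund and Dusp1 were measured in all 6 classes compared. Zfp36l1 was above 0 in the mutant in all 6, Jund in 1 and Dusp1 in 2. The ratios of Zfp36l1 were 0.13 in microglia, 0.17 in endothelial cells and 0.19 in the choroid plexus. They were 0.31 in astrocytes and 0.47 in the neuron lineage and in mural cells. Among members measured in fewer classes, Egr1 was above 0 in all 5 of its classes and Ier2 below 0 in all 5. The share of all genes above 0 in all 6 classes was not computed. The classes of a library share 1 pool of animals and 1 run, so these directions are not repeats. In microglia with Y transcripts Zfp36l1 had 1330 CPM in the mutant and 1352 CPM in the wild type (-0.02), and in microglia with Xist 1345 and 1148 CPM (0.23). The higher level in the mutant was therefore seen in the Xist cells of this class and not in the Y cells.

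The split by Xist and Y transcripts gives a view of the spread inside each pool, since the sub-pools come from different animals. These animals also differ in sex, so animal and sex cannot be told apart in the split. In microglia the summed members had 48073 CPM in mutant and 48953 CPM in wild-type Xist cells, and 50445 CPM in mutant and 52057 CPM in wild-type Y cells. Of the 29 measured members, 9 were lower in both mutant sub-pools than in both wild-type sub-pools (Fos, Jun, Ier3, Atf3, Btg1, Dusp2, Nr4a1, Zfp36 and Klf4), against 15.4% of genes, and 1 was higher in both (Cebpd), against 24.5%. Nr4a1 had 281 CPM in Xist and 271 CPM in Y cells of the mutant, against 320 and 394 CPM in the wild type, without overlap. Rgs1 overlapped, with 292 and 196 CPM in Xist and Y cells of the mutant, against 353 and 256 CPM in the wild type. In endothelial cells 7 of 27 members were higher in both mutant sub-pools, against 20.2% of genes, and 4 were lower, against 17.6%, shares near the background. In mural cells 2 of 27 members, Zfp36l2 and Klf4, were higher in both, against 17.5% of genes. Another 2, Dusp1 and Csrnp1, were lower in both, against 13%. Both counts are shares below the background. Only 24 cells made up the wild-type Y sub-pool, and Dusp1 in all mural cells was not lower in the mutant, with 1588 CPM in mutant and 1485 CPM in wild-type cells (0.10). Zfp36l2 had 134 CPM in Xist and 162 CPM in Y cells of the mutant, against 53.9 and 115 CPM in the wild type. As it counted as measured in mural cells through the mutant alone, these values support no direction. In the neuron lineage 1 of 12 members was higher in both (Klf6), against 17.8%, and 1 was lower in both (Dusp1), against 17%.

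In astrocytes the sub-pools of the wild type were further apart than the genotypes. The summed members had 7878 CPM in Xist cells and 8507 CPM in Y cells of the mutant, and 4860 CPM in Xist cells and 12758 CPM in Y cells of the wild type. Both mutant values thus lay between the wild-type values, and of the 20 measured members none was higher in both mutant sub-pools, against 17.7% of genes, and 1, Dusp6, was lower in both, against 16.9%. In the wild type, Y over Xist, the 20 measured members had a median log2 ratio of 1.24 and 17 were 1.5 times higher in Y cells, against 1.62% of genes, and none was lower, against 0.377%. In the mutant the same median was 0.11 and none was past 1.5 times in either direction, against 1.59% higher and 0.431% lower. Set against the matching wild-type cells, the mutant had a median of 0.41 in Xist cells, with 6 members 1.5 times higher against 0.701% of genes and none lower by that much against 0.189%. In Y cells the median was -0.61, with 11 members 1.5 times lower against 1.24% and none higher against 1.38%. Fos had 1956 CPM in Xist and 2037 CPM in Y cells of the mutant, and 1033 and 2784 CPM in the wild type. Egr1 had 774 and 1092 CPM in Xist and Y cells of the mutant, and 331 and 1334 CPM in the wild type. Klf4 had 37.8 and 41.4 CPM in Xist and Y cells of the mutant, and 33.4 and 150 CPM in the wild type. Among cells deep enough for thinning, mitochondrial UMIs averaged 3.50% in 249 Xist and 3.57% in 174 Y astrocytes of the mutant, and 3.77% in 389 Xist and 3.38% in 226 Y astrocytes of the wild type. The part of cell quality in this split was not tested. Within the main astrocyte cluster alone, the median thinned cell had 4 and 5 member UMIs in Xist and Y cells of the mutant, and 3 and 7 in the wild type, and the upper quartiles were 12.5 and 15 in the mutant and 8 and 36 in the wild type.

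**Figure D5:**
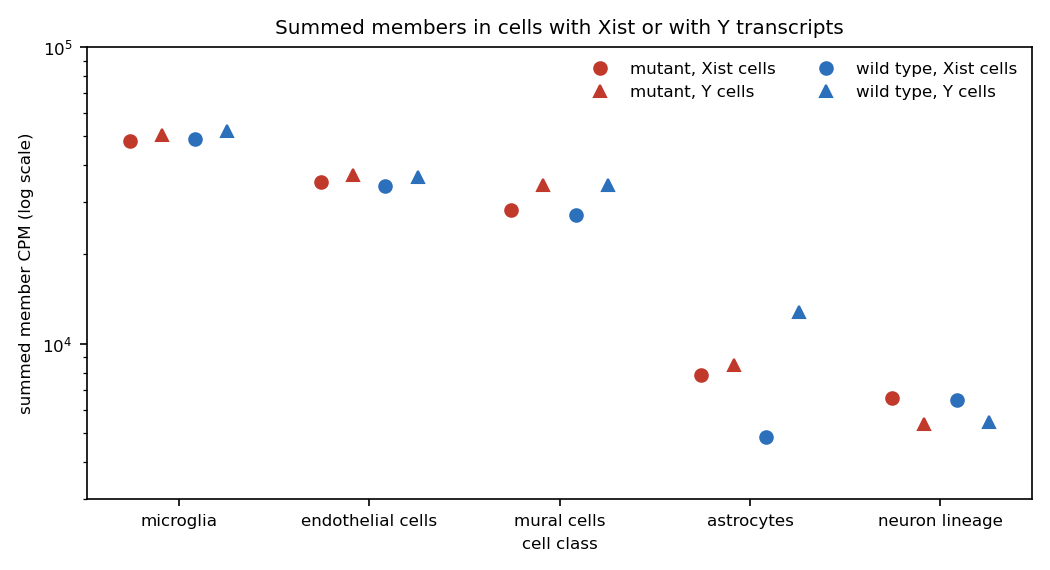
Summed CPM of the 34 members (log axis) in 5 classes, separately for Xist cells (circles) and Y cells (triangles), the Crlf3 mutant in red left of the wild type in blue. In astrocytes the mutant points at 7878 and 8507 CPM lie between the wild-type points at 4860 and 12758 CPM, while in the other classes the genotypes nearly coincide within each kind of cell.

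Related gene lists were set beside the members in the same classes. In microglia 36 other immediate early genes had 16 measured, 12 above and 4 below 0, with a median log2 ratio of 0.04 and none past 1.5 times. Heat shock genes, 12 measured of 14, had a median of 0.08, with Hspa1b lowest at -0.57 (146 CPM in mutant and 221 CPM in wild-type cells). Genes of chemokines and cytokines differed more: 11 of 12 measured were below 0, with a median of -0.17, and Ccl4 was past 1.5 times at 1303 CPM in mutant and 1974 CPM in wild-type cells (-0.60). Genes that act before transcription of the set, such as the MAP kinases, CREB and serum response factors, had 13 of 21 measured and a median of 0.01. In mural cells 21 of the other immediate early genes were measured, 12 of them in both libraries, and 1 of these 12 was 1.5 times higher. The other 9 reached the limit through the mutant alone, so their count supports no direction. Gadd45g, with 208 CPM in mutant and 43.0 CPM in wild-type mural cells, and Fosl2, an AP-1 gene outside the set, with 58.7 and 13.6 CPM, are among these.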

How the data were processed

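Hippocampal cells of 2 libraries, 1 of Crlf3-mutant and 1 of wild-type mice, were analysed from UMI counts that the authors deposited as gene-by-cell matrices. Per the labels and the submitters' processing notes, Cell Ranger 6.1.1 and the reference mm10-2020-A were named, and Partek without its role. Cells under 500 genes, under 1000 UMIs or above 10% of mitochondrial UMIs were dropped, and doublets were called with Scrublet in scanpy 1.11.5 (expected rate 0.06) and removed, 77 (1.44%) in the mutant and 148 (2.04%) in the wild type. A cell took the class with the highest share of detected markers among 14 marker lists (at least 0.4 and at least 4 markers), and 40 mutant and 44 wild-type cells took none. This scoring rule was set after the counts had been seen. Non-immune cells with over 10 microglial-marker UMIs per 10000 UMIs were left out (46 mutant and 80 wild-type cells).

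UMIs were summed per class and library and given as CPM. Ratios are log2 of CPM + 10, with exact 95% binomial intervals, and levels have exact Poisson intervals. Classes of at least 100 cells per library were compared, and levels were given from 15 cells. A gene counted as measured at 50 CPM and 30 UMIs in the higher library. No test was run, as each genotype is 1 library, and intervals cover counting error only. Cells were thinned to 2000 UMIs for shares and correlations, which left out 120 mutant and 162 wild-type cells. Leiden clusters (leidenalg 0.10.2, resolution 1.0) were made without the members. The procedure was tested on simulated counts. Named members are the 5 highest and the 5 with the largest ratio in a class, those past 1.5 times, and each in its leading class. Zfp36l1 was also named in every class compared. The members and lists were chosen with earlier results of these data known. Ambient RNA was not removed.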

Additional observations from a re-analysis of the deposited data

Results flagged for a closer look

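The members in astrocytes moved in opposite directions in the sub-pools of the libraries. The median log2 ratio, mutant over wild type, was 0.48 over the members measured in Xist cells (253 mutant and 400 wild-type cells). It was -0.61 over those measured in Y cells (175 mutant and 229 wild-type cells). The difference between the sub-pools was not tested.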

How the results depend on the processing

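Of 12 alternatives, 1 was added after the data had been seen, the class given only where no second class came close. The median ratio of the members in microglia was 0.0026 with thinned cells, 0.0050 as a mean over cells, -0.058 in Xist cells and -0.069 in Y cells, against -0.02 in all cells. In astrocytes it was -0.27 with Leiden classes, 0.48 in Xist cells and -0.61 in Y cells, against -0.08. In the choroid plexus, where 3 members were measured, it was -0.71 with doublets kept, -0.59 with cells of many microglial UMIs kept, 0.051 as a mean over cells and 0.14 without close second classes, against -0.09, and Xist cells gave no value. The cause was not tested. The ratio of Klf4 in astrocytes reversed to 0.14 in Xist cells. Over the named members, 498 values moved by less than their counting interval and 122 by more, and 1, that of Klf4, was counted as reversed. This count leaves out changes of sign in smaller ratios, which are among the other values and were not counted apart. In astrocytes, for example, Fos had a ratio of 0.17 in all cells, but 2037 CPM in mutant and 2784 CPM in wild-type Y cells. Egr1 had a ratio of 0.30 in all astrocytes, but 1092 and 1334 CPM in mutant and wild-type Y cells. The count of members with the same leading class was between 20 and 25. No paired analysis was possible because each genotype has 1 library. Counts were low for Dusp1 in the choroid plexus (34 mutant UMIs) and for Zfp36l2 in mural cells (28 wild-type UMIs).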
